A study of Mus musculus with 31 samples.

Results

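MC-38 tumors collected 24 h after radiotherapy (RT, 4 mice) were compared with MC-38 tumors collected 12 h after RT (4 mice), 8 of the 31 libraries of the series. The libraries were chosen by their labels, which give the tumor model, the treatment and the time. MC-38 is a mouse colon adenocarcinoma cell line. In both groups, cells were placed under the skin of the right hind leg of wild-type C57BL/6 mice (male C57BL/6J mice in the study's methods), and the tumors received a single dose of 15 Gy once they had reached 8 mm in diameter. Different mice were euthanized at each time, so each library is 1 tumor of 1 mouse. The MC-38 control mice (4) carry the 3 h label, and neither 12 h nor 24 h had an unirradiated group of its own. Of the RM-9 prostate tumors of the series (15 mice), 4 were untreated controls and the irradiated ones received the same dose. Messenger RNA was sequenced from whole tumor pieces. In such bulk tissue, fewer cells of a type and less RNA per cell cannot be told apart.

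Ionizing radiation breaks DNA, and DNA that reaches the cytosol is read by sensors such as cGAS, which signals through STING to the interferon regulatory factors, and AIM2, which activates caspase-1. The first of these routes turns on type I interferon and, through it, the interferon-stimulated genes. NF-kB and interferon signals also raise chemokines, small secreted proteins that draw leukocytes: ligands of CXCR2 attract neutrophils, ligands of CXCR3 attract activated T cells and natural killer (NK) cells, and several CC chemokines attract monocytes.

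Each library held 23.3 to 24.7 M reads at 12 h and 24.0 to 25.5 M at 24 h. Expression is given as TPM, a unit scaled by gene length whose sum is fixed in each library. Mitochondrially encoded genes took 24.6% ± 1.22 (SD, n = 4) of TPM at 12 h and 26.2% ± 3.51 at 24 h (exact permutation p = 0.486, two-sided), with the highest share, 30.5%, in RT 24 h mouse 1. The short gene mt-Nd4l alone made up 15.2% of TPM at 12 h and 16.9% at 24 h, while mt-Nd1, mt-Nd2, mt-Nd4 and mt-Atp6, which all cells with mitochondria use, were listed at 0 in all 8 libraries. A value of 0 in these tables therefore need not mean a lack of expression. That library also had the lowest median-ratio factor of the 8, 0.933, against 1.06 to 1.14 in the other 7. The factor is the size of a library relative to the average MC-38 library, taken from the middle gene. Dividing by it moved the median log2 fold change of all genes tested from −0.09 to −0.01, so results are given for TPM as deposited and after this median-ratio scaling. The control libraries had factors of 0.656 (mouse 1) to 1.03 (mouse 3) and mitochondrial shares of 25.7% to 40.6%. Control levels below are in TPM as deposited, which these differences can lower, and were not compared after scaling. Epithelial markers summed to 1.06 to 2.20 TPM at 12 h and 0.786 to 1.25 TPM at 24 h, although MC-38 is described as an adenocarcinoma, and 1 of the 8 markers passed the filter on low values (a mean of at least 0.5 TPM over the 16 MC-38 libraries). Skeletal muscle markers summed to 42.0, 550, 20.8 and 10.3 TPM at 12 h (mice 1 to 4) and to 4262, 15.4, 1328 and 152 TPM at 24 h, which marks RT 24 h mice 1 and 3 as the pieces with the most muscle RNA.

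From 12 h to 24 h, the genes that rose included genes of the chemokine lists (11 of 42 tested, 4 of them receptors and 1 the Cxcl11 pseudogene), interferon pathway genes (17 of 106 tested) and markers of inflammatory monocytes (5 of 8), and the genes that fell included 11 of 26 of cholesterol synthesis and 3 of 10 of heat shock. Of 15698 genes tested with limma on log2(TPM + 0.5), 218 were higher at 24 h (1.39%) and 46 were lower (0.293%) at a Benjamini-Hochberg adjusted p under 0.05. Under median-ratio scaling, 572 of 15701 were higher (3.64%) and 304 were lower (1.94%), and these included 217 of the 218 and 43 of the 46. The share of higher genes among all called was 82.6% as deposited and 65.3% after scaling. Every 24 h library stood above every 12 h library for 777 genes (4.95%) and below for 1546 (9.85%). Calls depended on single libraries: leaving out mouse 1, 2 or 4 of the 12 h group left 127, 112 and 122 higher genes and 16, 21 and 15 lower ones, and leaving out mouse 1, 3 or 4 of the 24 h group left 132, 125 and 133 higher genes and 15, 21 and 26 lower ones. In TPM as deposited, 131 of the 218 higher genes had a 12 h mean under the control mean and a 24 h mean over it. Of the 46 lower genes, 45 had a 12 h mean over the control mean. Whether these counts hold after median-ratio scaling was not tested.

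**Figure D1:**
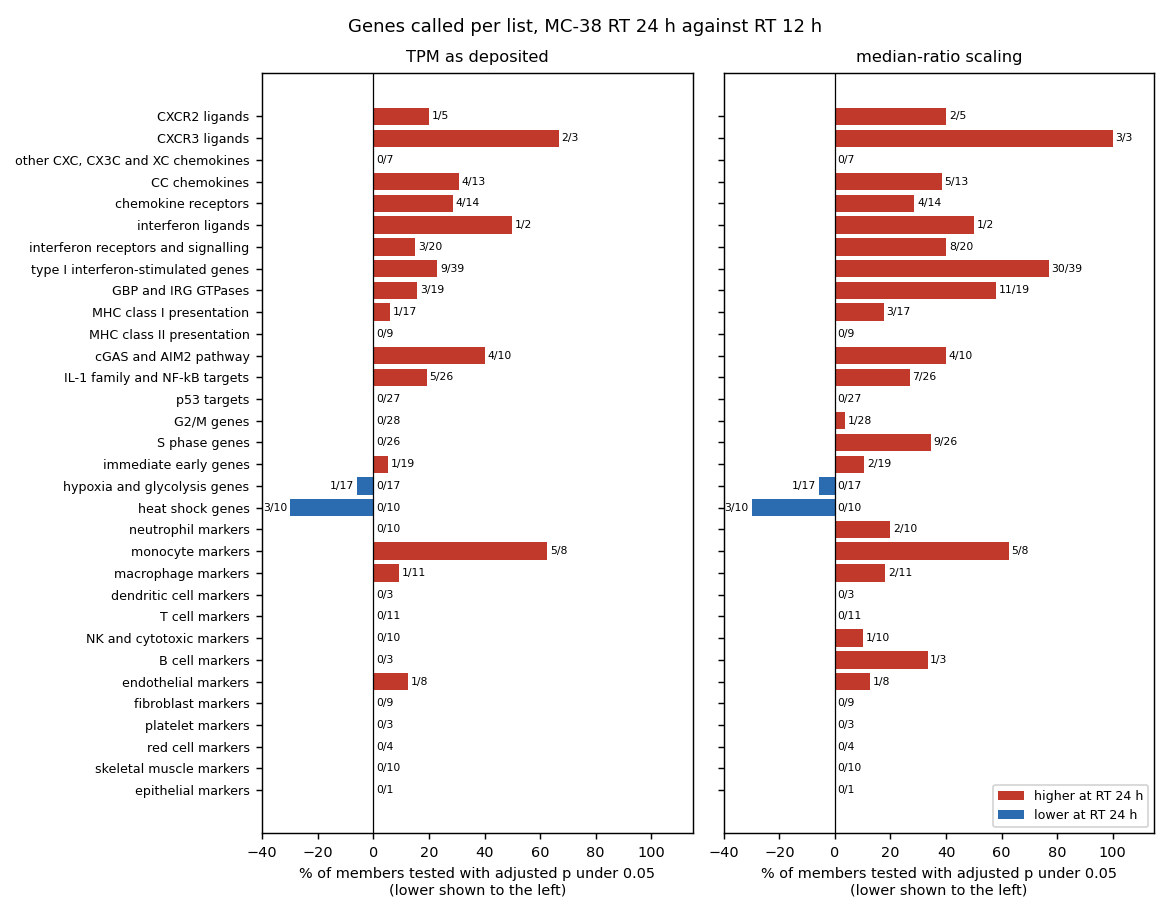
Share of tested members of each gene list that passed an adjusted p of 0.05 in the RT 24 h against RT 12 h comparison of MC-38 tumors (x axis, %, higher to the right and lower to the left), for TPM as deposited (left panel) and after median-ratio scaling (right panel), with counts beside the bars. Under both scalings the higher genes include members of chemokine, interferon, DNA-sensing, inflammation and monocyte lists. In each, 5 of 8 monocyte markers are called, and the called heat shock genes (3 of 10) and hypoxia gene (1 of 17) are lower. The 3 heat shock genes differ between the scalings, as Hspa8 is called only as deposited.

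Among the chemokine genes that passed, the CC ligands Ccl4 and Ccl12 had the largest log2 fold changes. Of 19 CC chemokine genes, 13 passed the filter on low values, 4 were higher and none was lower, with a median log2 fold change of 1.12. All 4 higher genes lie on chromosome 11, and 3 to 6 passed when 1 library was left out (6 without RT 24 h mouse 2). Ccl4 (ENSMUSG00000018930, chr11:83662584-83664683, GRCm38, plus strand), a chemoattractant of monocytes and T cells, was at 27.4, 15.7, 26.8 and 24.9 TPM at 12 h (mice 1 to 4) and at 101, 61.7, 98.5 and 73.3 TPM at 24 h. The groups were well apart, and control tumors averaged 25.6 TPM ± 5.13, close to the 12 h level. The rise was 3.52-fold in mean TPM, or 1.80 ± 0.21 (SE) on the log2 scale (limma adjusted p = 0.000496).

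Ccl12, a ligand of CCR2 in mice (chr11:82101845-82103400), went from 22.2, 22.4, 34.7 and 16.6 TPM to 110, 47.1, 78.3 and 48.2 TPM. Its log2 fold change was 1.50 ± 0.24 (limma adjusted p = 0.00401), and RT 24 h mice 1 and 3 were the highest. Its 12 h mean of 24.0 TPM was below the control mean of 42.8 TPM. Ccl7, which encodes another CCR2 ligand (chr11:82045712-82047525), had 85.8, 62.7, 88.1 and 83.6 TPM at 12 h and 186, 139, 223 and 154 TPM at 24 h, up by 1.12 ± 0.21 in log2 units (limma adjusted p = 0.00943). Ccl4, Ccl12 and Ccl7 passed in each of the 8 fits that left out 1 library. Ccl3, the neighbour of Ccl4 (chr11:83647844-83649355), rose from 9.01 TPM ± 1.28 to 21.6 TPM ± 4.47 (log2 fold change 1.21 ± 0.25, limma adjusted p = 0.0179) and passed in 4 of those 8 fits. Ccl2, the most abundant of Ccl2, Ccl7 and Ccl12, was at 649, 458, 568 and 794 TPM at 12 h and 853, 678, 1071 and 904 TPM at 24 h. Its groups overlapped and it did not pass (log2 fold change 0.51 ± 0.19, limma adjusted p = 0.229). Ccl5 did not pass as deposited either, with 174 to 218 TPM at 12 h and 216 to 541 TPM at 24 h (limma adjusted p = 0.099), and passed after median-ratio scaling (limma adjusted p = 0.0406).

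Receptors of these ligands were among the higher genes. Of 23 chemokine receptor genes, 14 were tested, 4 were higher and none was lower (median log2 fold change 0.34). Ccr2, the receptor of CCL2, CCL7 and CCL12 on inflammatory monocytes, went from 7.05 TPM ± 2.25 to 13.3 TPM ± 2.63, and Ccr1 from 7.14 TPM ± 2.94 to 15.0 TPM ± 2.36. For Ccr1 and Ccr2 the 24 h means were near those of control tumors, 13.4 TPM for each, and the 12 h means lay below them. Ccrl2, an atypical receptor that binds chemerin, differed in this respect, with 7.87 TPM in control, 12.0 TPM at 12 h and 23.5 TPM at 24 h. Ccr1, Ccr2 and Ccrl2 passed in 3, 2 and 6 of the 8 fits that left out 1 library, and none of the 14 receptors passed without RT 12 h mouse 2. Cxcr3 and Cxcr4 did not pass, with log2 fold changes of −0.02 and 0.26.

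Of the CXCR3 ligands, which lie side by side on chromosome 5 and are induced by interferons, 2 of 3 were higher as deposited and all 3 after median-ratio scaling. Cxcl9 (chr5:92321347-92328079, minus strand) had 34.4, 37.5, 43.0 and 32.5 TPM at 12 h and 97.7, 65.5, 98.1 and 61.0 TPM at 24 h. Its log2 fold change was 1.09 ± 0.20 (limma adjusted p = 0.00883), and it passed in all 8 fits that left out 1 library. Of the 3 genes, 1 to 3 passed in those fits (1 without RT 12 h mouse 1 or 2 or RT 24 h mouse 1 or 3, and 3 without RT 24 h mouse 2). Cxcl11 (chr5:92359544-92365485, minus strand) is annotated as a polymorphic pseudogene, because the C57BL/6 copy carries a frameshift, so its transcript is not read here as a chemokine. It went from 19.9, 21.6, 24.7 and 23.3 TPM to 73.2, 38.3, 56.3 and 37.3 TPM (log2 fold change 1.13 ± 0.22, limma adjusted p = 0.0159). Cxcl10 (chr5:92346638-92348889, minus strand) was by far the most abundant, at 1115, 1013, 1105 and 1065 TPM at 12 h and 2409, 1210, 1811 and 1379 TPM at 24 h. The groups did not overlap, yet with all libraries it passed only after scaling (log2 fold change 0.61 ± 0.18 as deposited, limma adjusted p = 0.12, and 0.70 after scaling, limma adjusted p = 0.0426), and as deposited it passed without RT 24 h mouse 2. The control mean of Cxcl9, 57.9 TPM, lay between its means at 12 h (36.9 TPM) and 24 h (80.6 TPM). For Cxcl10 and Cxcl11 the control means, 841 and 13.5 TPM, lay below the 12 h means of 1074 and 22.4 TPM. In Cxcl9, Cxcl10 and Cxcl11, RT 24 h mice 1 and 3 were the highest libraries, and these had the most muscle RNA. The part of muscle RNA in this order was not tested.

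Of the CXCR2 ligands, 1 of 5 was higher as deposited and 2 of 5 after median-ratio scaling, with a median log2 fold change of 0.44. Cxcl3 (chr5:90786103-90789600, plus strand) had 2.78, 3.02, 0.887 and 1.89 TPM at 12 h and 5.01, 4.03, 4.90 and 7.98 TPM at 24 h. The log2 fold change was 1.23 ± 0.29 (limma adjusted p = 0.0443), and the call was kept in 2 of the 8 fits with 1 library removed, those without RT 12 h mouse 2 or RT 24 h mouse 2. Cxcl2 (chr5:90903871-90905938, plus strand) was at 2.61, 2.21, 2.55 and 2.36 TPM and then at 4.44, 4.80, 6.51 and 10.6 TPM. Its 4 libraries at 24 h all lay above those at 12 h and the control mean of 2.02 TPM, but as deposited it did not pass (log2 fold change 1.20 ± 0.33, limma adjusted p = 0.0817), and after scaling it did (limma adjusted p = 0.0172). Cxcl1, the most abundant of the 5, overlapped between the times with 24.1 to 37.4 TPM at 12 h and 26.0 to 39.7 TPM at 24 h (log2 fold change 0.20 ± 0.28, limma adjusted p = 0.754). Cxcl5 averaged 1.89 and 2.74 TPM and Ppbp 0.411 and 0.665 TPM, both with overlapping groups. Cxcl1, Cxcl2 and Cxcl3 are close copies of one another, and short reads can be shared among them, so the split among these genes is uncertain. Their receptor Cxcr2 was at 0.512 TPM ± 0.0662 at 12 h and 0.777 TPM ± 0.169 at 24 h (limma adjusted p = 0.442).

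The promoter windows of Cxcl10, Cxcl2 and Cxcl3 are shown because these genes had no overlap between the times and hold a match to an interferon or NF-kB motif. Each is the 250 bases before the RefSeq transcript start in GRCm38.p6, written 5′ to 3′ on the gene's strand, with the matched motif in capitals. Cxcl10 (chr5:92348890-92349139, minus strand) holds the interferon-stimulated response element GAAANNGAAA, searched on both strands, 213 bases before the start. Cxcl2 (chr5:90903649-90903898, plus strand) holds the NF-kB motif GGGNNTTTCC 97 and 78 bases before the start, and Cxcl3 (chr5:90785851-90786100, plus strand) holds it 73 bases before the start.
Cxcl10: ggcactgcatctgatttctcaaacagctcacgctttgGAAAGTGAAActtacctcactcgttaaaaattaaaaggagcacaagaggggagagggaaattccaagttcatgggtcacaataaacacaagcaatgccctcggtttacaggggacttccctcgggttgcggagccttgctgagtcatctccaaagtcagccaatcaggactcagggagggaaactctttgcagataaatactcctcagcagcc
Cxcl2: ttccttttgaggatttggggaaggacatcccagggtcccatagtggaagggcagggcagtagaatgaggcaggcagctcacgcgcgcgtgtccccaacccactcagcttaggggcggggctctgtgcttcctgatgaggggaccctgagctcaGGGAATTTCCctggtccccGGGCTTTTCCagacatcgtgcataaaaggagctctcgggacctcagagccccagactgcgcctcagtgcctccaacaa
Cxcl3: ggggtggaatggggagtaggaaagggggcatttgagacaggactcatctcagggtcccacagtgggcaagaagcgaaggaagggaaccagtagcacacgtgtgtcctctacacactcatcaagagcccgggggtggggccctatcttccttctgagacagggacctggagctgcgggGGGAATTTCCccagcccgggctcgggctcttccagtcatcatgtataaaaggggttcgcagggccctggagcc
The NF-kB motif was present in 447 of all 27025 genes with a window of this length (1.65%). Among the 4 CXCR2 ligand genes with a window, it was present in Cxcl1, Cxcl2 and Cxcl3. A match gives letters in a window, not a bound site.

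**Figure D2:**
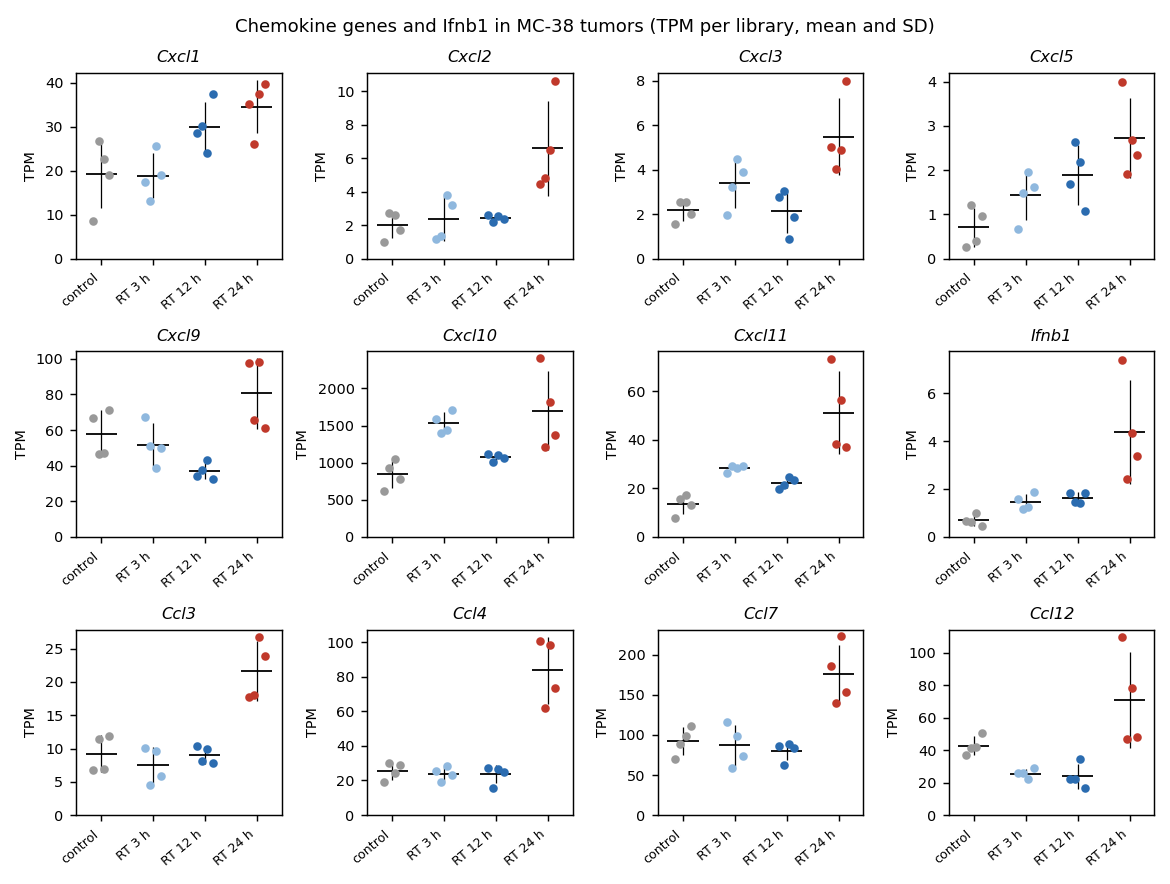
TPM of 11 chemokine genes and Ifnb1 in the MC-38 libraries (y axes, each starting at 0), by group (control, RT 3 h, RT 12 h, RT 24 h; 1 point per mouse, n = 4, line and bar for mean and SD). Ccl3, Ccl4, Ccl7 and Ccl12 stay near or below the control level until 12 h and stand above all other groups at 24 h in mean, whereas Cxcl10 was already at 1534 TPM in mean at 3 h.

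Of the interferon genes themselves, 2 of 21 passed the filter, Ifnb1 and Ifng, and the other 19 had means under 0.5 TPM over the MC-38 libraries. Ifnb1, the type I interferon made first after nucleic acid sensing (chr4:88522025-88522774), was at 1.83, 1.46, 1.41 and 1.83 TPM at 12 h and 7.39, 2.40, 4.33 and 3.39 TPM at 24 h. The groups did not overlap, control tumors averaged 0.684 TPM, and the log2 fold change was 1.10 ± 0.25 (limma adjusted p = 0.0332), a call kept only without RT 24 h mouse 2 among the 8 fits with 1 library removed. Ifna4, below the filter and so untested, had 0.102 to 0.315 TPM at 12 h and 0.488 to 1.75 TPM at 24 h. Ifng, the type II interferon of T cells and NK cells, was at 0.720 to 1.60 TPM at 12 h and 1.72 to 2.15 TPM at 24 h and did not pass (log2 fold change 0.50 ± 0.29, limma adjusted p = 0.45).

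Downstream, 3 of 20 tested genes of interferon receptors and signalling were higher and none was lower as deposited, and 8 were higher after median-ratio scaling. Irf7, the factor that amplifies type I interferon (chr7:141262706-141266481), had 195, 159, 187 and 161 TPM at 12 h and 420, 281, 451 and 338 TPM at 24 h. This 2.12-fold rise in mean TPM (log2 fold change 1.07 ± 0.15, limma adjusted p = 0.00155) held in all 8 fits that left out 1 library. Irf5, active in macrophages, rose from 14.5 TPM ± 3.23 to 30.3 TPM ± 5.68 (log2 fold change 1.04 ± 0.17, limma adjusted p = 0.00419). Irf8, a factor of monocytes and dendritic cells, gained 0.57 ± 0.13 in log2 units (limma adjusted p = 0.0298). Irf3 and Tyk2 did not pass, with log2 fold changes of −0.15 and −0.08.

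The type I interferon-stimulated genes all leaned the same way. All 39 of the 40 listed genes that were tested had a positive log2 fold change, with a median of 0.55 against −0.09 for all genes. Of these, 9 were higher as deposited and 30 after median-ratio scaling, none was lower, and 29 had every 24 h library above every 12 h library. The direction of all 39 was the same under both scalings, and with 1 library left out 6 to 11 were called (6 without RT 12 h mouse 1, 2 or 4 or RT 24 h mouse 1). Summed over the list, TPM was 7209, 6620, 6745 and 6896 at 12 h and 10153, 8480, 10912 and 9012 at 24 h. Control tumors spanned 4251 to 7079 TPM as deposited, with the lowest value in control mouse 1, whose median-ratio factor was 0.656.

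The largest rise in the list was that of Gm14446, named Ifit1bl1 in other annotations (ENSMUSG00000079339, chr19:34592888-34601968, minus strand), a member of the IFIT family. It was at 9.62, 4.93, 12.2 and 7.93 TPM at 12 h and 62.1, 29.8, 44.2 and 39.5 TPM at 24 h. This was 5.06-fold in mean TPM, or 2.29 ± 0.25 in log2 units (limma adjusted p = 0.000496), and control tumors averaged 14.2 TPM. Ifit3 (chr19:34583531-34588731, plus strand), which together with other IFIT proteins blocks viral RNA, went from 173, 144, 165 and 150 TPM to 457, 264, 421 and 302 TPM (log2 fold change 1.15 ± 0.18, limma adjusted p = 0.00321). Its near-identical copy Ifit3b behaved alike in number (log2 fold change 1.13), but reads of these copies are hard to tell apart. Ifit2 rose from 37.6 TPM ± 4.45 to 87.8 TPM ± 14.5 (log2 fold change 1.21 ± 0.15, limma adjusted p = 0.000553). Mx1, a dynamin-like GTPase that blocks viruses, rose from 27.5 TPM ± 2.03 to 66.9 TPM ± 15.9 (limma adjusted p = 0.021), and Ifi27l2a from 116 TPM ± 28.4 to 280 TPM ± 71.4 (limma adjusted p = 0.00399). Isg15, a ubiquitin-like protein and the most abundant gene named here from this list, had 560 to 629 TPM at 12 h and 710 to 1086 TPM at 24 h, and passed only after scaling (limma adjusted p = 0.115 and 0.0115).

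The interferon-induced GTPases of the GBP and IRG families, which attack membranes of intracellular pathogens, leaned the same way. All 19 had a positive log2 fold change, the median was 0.45, and 3 were higher as deposited and 11 after scaling. None of them was called without RT 12 h mouse 1 or 2 or RT 24 h mouse 3 or 4, and 5 were without RT 12 h mouse 3. Gbp5 had 50.5, 51.6, 54.5 and 58.6 TPM at 12 h and 89.8, 82.6, 78.0 and 78.1 TPM at 24 h (log2 fold change 0.61 ± 0.13, limma adjusted p = 0.0222). Unlike Ifit3 or Cxcl11, Gbp5 varied little among the 24 h mice. Tgtp1 and Tgtp2 had log2 fold changes of 0.72 and 0.76 (limma adjusted p = 0.0322 and 0.0184). These are close copies on the same chromosome and may share reads. In antigen presentation, 1 of 17 genes of the MHC class I list was higher, H2-T23, which encodes the nonclassical molecule Qa-1. It went from 44.0, 40.3, 54.4 and 34.5 TPM to 73.8, 67.0, 94.4 and 75.2 TPM (log2 fold change 0.84 ± 0.15, limma adjusted p = 0.00609). Control tumors averaged 68.8 TPM of H2-T23, between the means at 12 h and 24 h. The class I list as a whole had a median log2 fold change of 0.12, and none of 9 tested MHC class II genes passed. Cd74, the class II chaperone, overlapped between the times with 147 to 330 TPM and 141 to 432 TPM.

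Of the type I interferon-stimulated genes with a promoter window (31), 13 held GAAANNGAAA, and of the GBP and IRG genes with a window (10) all 10 did. Among all 27025 genes with a window, 936 held it in any of their windows (3.46%). Of the 136 genes higher at 24 h that had a window, 19 did. The windows of Ifit3 (chr19:34583279-34583528, plus strand) and Gm14446 (chr19:34601969-34602218, minus strand), neighbours on chromosome 19, are shown as those of the list's abundant and most changed genes, in the same layout and build as above. Capitals mark the motif as it reads on the other strand, 156 and 122 bases before the start in Ifit3 and 104 bases before it in Gm14446.
Ifit3: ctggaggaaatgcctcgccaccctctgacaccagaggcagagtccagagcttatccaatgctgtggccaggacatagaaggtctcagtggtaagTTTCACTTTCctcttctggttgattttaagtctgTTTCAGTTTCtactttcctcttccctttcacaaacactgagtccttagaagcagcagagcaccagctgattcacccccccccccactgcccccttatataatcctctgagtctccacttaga
Gm14446: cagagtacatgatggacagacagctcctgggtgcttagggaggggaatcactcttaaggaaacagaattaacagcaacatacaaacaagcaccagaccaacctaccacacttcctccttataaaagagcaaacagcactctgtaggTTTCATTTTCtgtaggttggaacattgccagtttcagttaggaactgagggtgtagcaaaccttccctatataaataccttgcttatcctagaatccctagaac

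**Figure D3:**
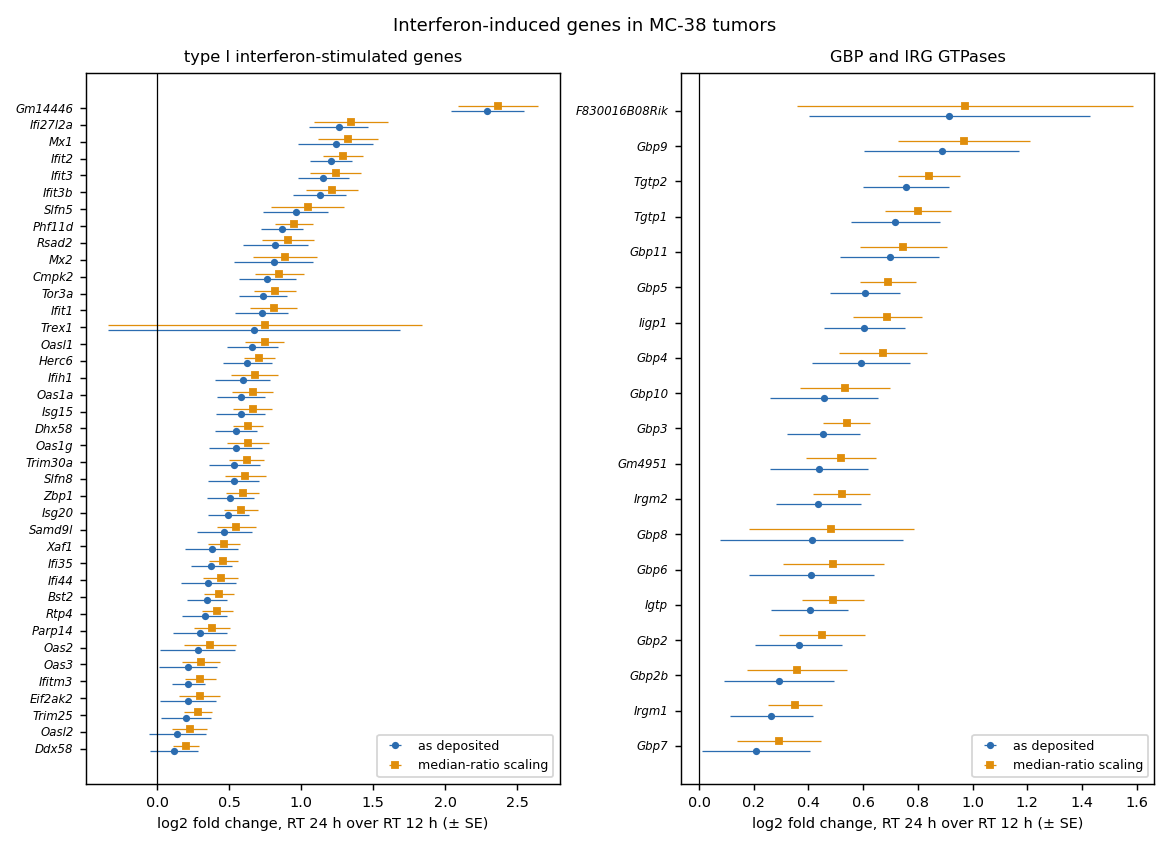
Log2 fold change with SE (x axes, RT 24 h over RT 12 h in MC-38 tumors, limma on log2(TPM + 0.5), 4 mice per time) of the tested type I interferon-stimulated genes (left, 39) and GBP and IRG GTPases (right, 19), as deposited (circles) and after median-ratio scaling (squares). Every point lies to the right of 0 under both scalings, and Gm14446 stands apart at 2.29.

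In the DNA-sensing list, which joins the cGAS and AIM2 routes, 4 of 10 genes rose, Ifnb1, Tmem173, Il1b and Il18, and all but Tmem173 also stand in another list used here. None of the 10 passed without RT 12 h mouse 2 or RT 24 h mouse 3, and 1 to 3 passed without another library. Tmem173, which encodes STING, had 45.3, 41.1, 46.9 and 49.0 TPM at 12 h and 69.5, 65.8, 62.1 and 64.1 TPM at 24 h (log2 fold change 0.52 ± 0.11, limma adjusted p = 0.0287). It passed in 1 of the 8 fits that left out 1 library. Mb21d1, which encodes cGAS, was at 21.6 to 24.0 TPM at 12 h and 19.6 to 24.1 TPM at 24 h (log2 fold change −0.07 ± 0.15, limma adjusted p = 0.856), a value whose sign turned after median-ratio scaling. Aim2 and Casp1 did not pass either, with log2 fold changes of 0.13 and 0.14.

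In the list of IL-1 family genes and NF-kB targets, 5 of 26 tested genes were higher and none was lower (median log2 fold change 0.25), with 2 to 5 when 1 library was left out (2 without RT 24 h mouse 3 and 3 without RT 12 h mouse 2 or RT 24 h mouse 1). Il1rn, the IL-1 receptor antagonist (chr2:24336853-24351494), changed most and with little scatter, from 16.3, 10.97, 19.9 and 19.6 TPM to 64.7, 65.4, 69.4 and 69.9 TPM. The rise was 4.04-fold in mean TPM (log2 fold change 2.02 ± 0.25, limma adjusted p = 0.000624), and control tumors averaged 31.2 TPM. Il1b had 14.8, 13.7, 18.8 and 16.5 TPM at 12 h and 22.7, 31.5, 32.6 and 38.2 TPM at 24 h (log2 fold change 0.94 ± 0.18, limma adjusted p = 0.014). Its control mean was 22.9 TPM and its 3 h mean 32.3 TPM, so the 12 h mean of Il1b was the lowest of the 4 MC-38 groups. Il18 rose from 3.26 TPM ± 0.801 to 7.67 TPM ± 1.70 (limma adjusted p = 0.0175), and Il6 from 2.63 TPM ± 0.397 to 6.22 TPM ± 2.22 (limma adjusted p = 0.0155). Icam1, the adhesion molecule that leukocytes use to leave vessels, went from 13.04 TPM ± 2.16 to 27.6 TPM ± 5.81 (log2 fold change 1.05 ± 0.17, limma adjusted p = 0.00401). The NF-kB subunits Nfkb1 and Rela did not pass, with log2 fold changes of 0.02 and 0.03.

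Among the marker lists of leukocytes, that of inflammatory monocytes had the largest share of higher genes. Of 8 markers, 5 were higher under either scaling and none was lower, with a median log2 fold change of 1.26. As deposited, 7 had positive log2 fold changes and 1 had a negative one, −0.20. Ly6c2, the surface marker of inflammatory monocytes (chr15:75108158-75111970), was at 65.9, 45.2, 84.4 and 56.3 TPM at 12 h and 359, 190, 327 and 257 TPM at 24 h. Control tumors averaged 137 TPM, between the times. The rise was 4.50-fold (log2 fold change 2.16 ± 0.25, limma adjusted p = 0.000496), and reads of its near-identical neighbour Ly6c1 may be mixed in. Plac8 went from 66.1, 60.2, 81.1 and 45.1 TPM to 289, 138, 251 and 180 TPM (log2 fold change 1.73 ± 0.23, limma adjusted p = 0.0012). Chil3, a chitinase-like protein of monocytes and alternatively activated macrophages, had 4.60, 2.14, 5.39 and 2.50 TPM and then 33.9, 9.51, 22.0 and 13.2 TPM (log2 fold change 2.20 ± 0.40, limma adjusted p = 0.00835). In each of Ly6c2, Plac8 and Chil3 RT 24 h mouse 1 was the highest and mouse 2 the lowest of the 24 h libraries, and even mouse 2 lay above all 12 h libraries. F13a1 did not pass and overlapped between the times, with 1.36 to 7.76 TPM and 1.62 to 12.6 TPM.

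Markers of other leukocytes were less uniform. Macrophage markers summed to 509, 422, 752 and 319 TPM at 12 h, 750, 706, 888 and 815 TPM at 24 h and 866 to 1377 TPM in control tumors. One of 11 was higher at 24 h as deposited, Fcgr1, the high-affinity IgG receptor that interferon induces on myeloid cells, which rose from 20.7 TPM ± 8.13 to 55.4 TPM ± 12.1 (log2 fold change 1.45 ± 0.22, limma adjusted p = 0.00257). Without RT 12 h mouse 3, the library with the highest macrophage sum at 12 h, 6 of the 11 passed. For neutrophils, 10 of 14 markers were tested, all 10 had positive log2 fold changes (median 0.81), none passed as deposited and 2 passed after scaling. Their sums did not overlap, with 48.0, 56.6, 47.8 and 44.2 TPM at 12 h and 169, 62.9, 84.3 and 92.2 TPM at 24 h. None of 11 T cell markers and none of 10 NK and cytotoxic markers passed as deposited, with median log2 fold changes of 0.13 and 0.21. T cell sums overlapped between the times. NK and cytotoxic sums did not, at 481 to 540 TPM at 12 h and 599 to 960 TPM at 24 h. After scaling, 1 NK and cytotoxic marker passed, Ccl5, which is also on the CC chemokine list. Among non-leukocyte lists, 1 of 8 endothelial markers rose, the VEGF receptor Kdr, from 3.87 TPM ± 0.525 to 6.85 TPM ± 1.32 (limma adjusted p = 0.0179), a call lost without RT 12 h mouse 2 or 4 or RT 24 h mouse 1 or 2. Endothelial sums did not overlap, at 49.1 to 66.9 TPM at 12 h and 71.7 to 93.9 TPM at 24 h. None of 9 fibroblast markers and none of 10 skeletal muscle markers passed, with median log2 fold changes of 0.73 and 2.57 and overlapping sums. None of 4 tested red cell markers passed, with a median of 0.71, and their sums did not overlap, at 52.0 to 76.5 TPM at 12 h and 80.4 to 118 TPM at 24 h. The part of these cell types in the chemokine and interferon values above was not tested.

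**Figure D4:**
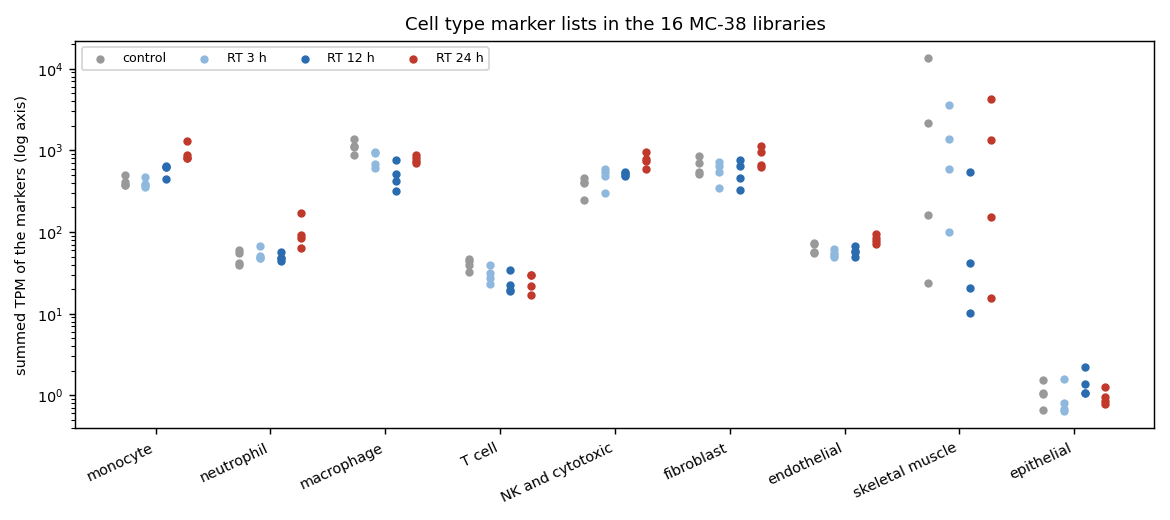
Summed TPM of the markers of 9 cell types (y axis, log scale) in the 16 MC-38 libraries, 1 point per mouse, coloured by group. Monocyte sums at RT 24 h (801 to 1303 TPM) lie above those at RT 12 h (447 to 636 TPM), skeletal muscle sums run from 10.3 to 550 TPM at RT 12 h and from 15.4 to 4262 TPM at RT 24 h, and epithelial sums are near 1 TPM throughout.

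Genes of DNA damage and growth were tested as well. None of 27 tested p53 target genes passed (median log2 fold change −0.09, the same as for all genes). Cdkn1a, the p53-induced cell cycle inhibitor p21, had 73.8 to 82.8 TPM at 12 h and 84.4 to 111 TPM at 24 h (log2 fold change 0.31 ± 0.12, limma adjusted p = 0.245). None of 28 G2/M genes and none of 26 S phase genes passed as deposited. After scaling, 9 S phase genes were higher, most of them subunits of the MCM replicative helicase. Mcm6 was at 133 to 147 TPM at 12 h and 171 to 203 TPM at 24 h, with a limma adjusted p of 0.05 as deposited and 0.00458 after scaling. Of 19 immediate early genes Egr2 alone passed as deposited, from 1.31 TPM ± 0.318 to 3.03 TPM ± 0.932 (log2 fold change 0.95 ± 0.18, limma adjusted p = 0.0134), a call lost without RT 12 h mouse 4.

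Of the 46 lower genes, 11 belong to cholesterol synthesis and its control. This list of 26 genes was drawn up after the values had been seen and is therefore a description. All 26 had negative log2 fold changes, from −1.03 to −0.13 with a median of −0.54, and 11 were lower as deposited and 12 after scaling. Their summed TPM was 1486, 1314, 1568 and 1752 at 12 h and 812, 1249, 937 and 1128 at 24 h, against 789 to 1097 in control tumors. In TPM as deposited the 12 h libraries were thus the high ones, and the 24 h libraries overlapped the control range. With 1 library left out, 4 to 12 of the 26 passed, 4 without RT 12 h mouse 1 or 4, 5 without RT 24 h mouse 1 or 3 and 6 without RT 12 h mouse 3. Cholesterol is made from acetyl-CoA through mevalonate and squalene, and the genes of this route are switched on together by SREBP-2 when sterols are low.

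In the order of the route, Hmgcs1, the HMG-CoA synthase (chr13:119690462-119708086), fell from 102, 98.5, 112 and 136 TPM to 44.6, 70.4, 43.3 and 65.2 TPM (log2 fold change −1.02 ± 0.18, limma adjusted p = 0.0059). The mevalonate kinase and decarboxylase genes Mvk and Mvd were lower, with log2 fold changes of −0.66 and −0.98 (limma adjusted p = 0.0125 and 0.0233). Idi1, Fdps and Fdft1, which lead to squalene, fell by 0.74, 0.51 and 0.73. Sqle, the squalene epoxidase, went from 73.7, 68.4, 81.6 and 90.4 TPM to 33.0, 48.8, 33.8 and 44.2 TPM (log2 fold change −0.98 ± 0.14, limma adjusted p = 0.00177). Lss and Msmo1, further down the route, fell by 1.03 and 0.75. The regulators moved the same way, with Insig1, the sterol-dependent brake of SREBP processing, at −0.97 ± 0.16 (limma adjusted p = 0.00389) and Srebf2, the gene of SREBP-2, at −0.53 ± 0.13 (limma adjusted p = 0.0485). Hmgcs1, Sqle, Insig1 and Mvk passed in all 8 fits that left out 1 library, while Lss passed in 2 and Srebf2 in 1.

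A sterol regulatory motif, TCACNCCAC on either strand, was present in 331 of all 27025 genes with a window (1.22%). It was present in 1 of the 18 genes of the cholesterol list with a window. That window, of Hmgcs1 (chr13:119690101-119690350, plus strand, GRCm38.p6), is shown with the motif in capitals 137 bases before the RefSeq start.
Hmgcs1: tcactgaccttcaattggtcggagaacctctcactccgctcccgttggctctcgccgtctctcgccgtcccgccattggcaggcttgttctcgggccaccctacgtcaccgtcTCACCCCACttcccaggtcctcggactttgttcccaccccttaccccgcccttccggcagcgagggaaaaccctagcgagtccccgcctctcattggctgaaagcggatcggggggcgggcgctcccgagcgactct

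Heat shock and hypoxia genes were also among the falls. Of 10 heat shock genes 3 were lower, 8 had negative and 2 positive log2 fold changes, and the median was −0.25. The positive values were 1.31 ± 1.16 for Hspb1, at 3.26 TPM ± 3.15 and 13.3 TPM ± 15.6 with overlap, and 0.06 ± 0.13 for Hspe1, and neither passed. With 1 library left out 0 to 2 passed, none without RT 12 h mouse 1 and 1 without RT 24 h mouse 1. Hspa1b, an inducible Hsp70 (chr17:34956436-34959238), had 14.7, 28.9, 10.9 and 10.8 TPM at 12 h and 4.25, 5.47, 6.99 and 6.43 TPM at 24 h (log2 fold change −1.32 ± 0.27, limma adjusted p = 0.0182). Its copy Hspa1a fell by 1.19 (limma adjusted p = 0.02), and reads may be shared between them. In both, RT 12 h mouse 2 was the highest library. Hspa8, the constitutive Hsp70, went from 1430 TPM ± 150 to 1007 TPM ± 90.6, close to the control mean of 1020 TPM. It was lower as deposited (log2 fold change −0.50 ± 0.12, limma adjusted p = 0.0351) and did not pass after scaling (limma adjusted p = 0.1).

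Among hypoxia and glycolysis genes, targets of HIF-1, 16 of 17 had negative log2 fold changes (median −0.50), 8 had no overlap between the times and 1 passed. That gene, Ankrd37 (chr8:45996902-45999867), had the largest fall by the rule used for named genes, from 34.0, 35.4, 26.9 and 50.5 TPM to 4.07, 19.6, 13.3 and 15.2 TPM (log2 fold change −1.61 ± 0.36, limma adjusted p = 0.0319). RT 24 h mouse 1 was the lowest library, and the call was lost without RT 12 h mouse 1, 2 or 4 or RT 24 h mouse 3. Slc2a1, the glucose transporter GLUT1, was at 68.0 to 106 TPM at 12 h and 26.4 to 63.9 TPM at 24 h and did not pass (limma adjusted p = 0.188). Beyond these lists, Slc39a10, a zinc importer, fell from 31.2 TPM ± 1.36 to 13.5 TPM ± 3.83 (log2 fold change −1.22 ± 0.17, limma adjusted p = 0.00155), below the control mean of 22.9 TPM. Deptor, an inhibitor of mTOR, and Per2, a clock gene, had log2 fold changes of −1.17 and −1.12 (limma adjusted p = 0.0389 and 0.0467). The clock time of collection was not given in the sources used here. Fgf11 fell by 1.04 (limma adjusted p = 0.0233). With 1 library left out, Deptor passed in 3 of the 8 fits, Fgf11 in 4 and Per2 in 0. The remaining large rises by the same rule, beside those described, were Ms4a4c, a membrane protein of leukocytes (log2 fold change 1.70 ± 0.22, limma adjusted p = 0.000792), and Slc28a2, a nucleoside transporter (1.58 ± 0.20, limma adjusted p = 0.000763).

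**Figure D5:**
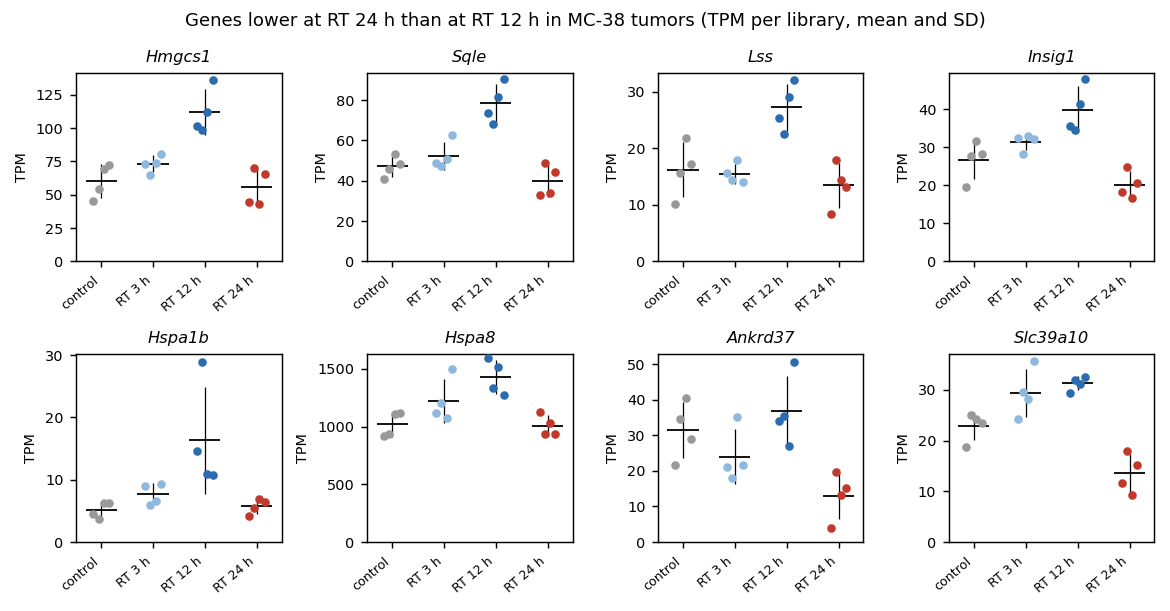
TPM of 8 genes that were lower at RT 24 h than at RT 12 h in MC-38 tumors (y axes, each starting at 0), by group, with 1 point per mouse (n = 4), mean and SD. Hmgcs1, Sqle, Lss, Hspa1b and Hspa8 peak at 12 h and are near the control level at 24 h, whereas Ankrd37 and Slc39a10 lie below control at 24 h.

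Whether these changes differed from those of RM-9 tumors over the same interval was tested as an interaction over 15358 genes in all 31 libraries. No gene passed in the limma fit as deposited (0 genes, 0.0%), with a smallest adjusted p of 0.0734 and 2353 genes at an unadjusted p under 0.05, and 33 passed after median-ratio scaling. For Ccl4 the log2 fold change was 1.80 in MC-38 and 0.66 in RM-9 (interaction adjusted p = 0.117, limma), and for Ifit3 it was 1.15 and 1.57 (interaction adjusted p = 0.624, limma). Hmgcs1 had −1.02 in MC-38 and 0.17 in RM-9 (interaction adjusted p = 0.124, limma). A difference between the models was therefore not shown for these genes, and the RM-9 arm has 3 mice at 24 h and 4 at 12 h.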

How the data were processed

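Stranded mRNA libraries (TruSeq) were sequenced by the authors and 1 table per library was deposited, with TPM, FPKM and coverage for 46072 genes. TPM was deposited already scaled by the authors for gene length and library total. FPKM and coverage, the signal of mean read depth per base, were deposited beside it and were used here only to compute the number of 75-base reads per library. The submitters' processing notes name bcl2fastq 2.17 and GRCm39. The coordinates deposited, however, share chromosome with GENCODE M21 (GRCm38) in 100% of 45223 common genes and a start or end in 91.1%, and are given as GRCm38. The aligner and counting program are not given in the sources used here. Rows with the same gene ID were summed.

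The test was limma 3.58.1 in R 4.3.3 on log2(TPM + 0.5) with a trend in eBayes. All 16 MC-38 libraries entered in 4 groups, a gene was tested where its mean over these libraries reached 0.5 TPM, and p-values were adjusted by Benjamini-Hochberg at 0.05. Fold changes on this scale understate those of low genes. Exact permutation tests used 70 assignments, with a smallest possible p of 0.0286. For the genes named in the text with overlap-free groups the exact p was at this limit. The interaction with RM-9 used 31 libraries in 8 groups. The files hold no read counts, so no counting error could be given. Plots came from matplotlib 3.10.9 under Python 3.11.15, with tables from pandas 2.3.3 and numpy 2.4.6.

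The comparison, its members and the 33 gene lists (471 genes) were chosen with earlier results of these data known. Named genes were all CXCR2 and CXCR3 ligands, up to 3 genes of smallest p per chemokine, interferon, sensing, inflammation, damage, cycle or stress list, and the 8 largest rises and falls among genes that passed, with a mean TPM of at least 1, no overlap and no Gm, Rik, mt- or pseudogene symbol. This gave 68 genes. Another 40 genes and the cholesterol, Toll-like receptor, Schlafen and MS4A lists were chosen after their values had been seen. Some of these genes are not reported here. Promoter windows came from RefSeq (GRCm38.p6). The alternatives were median-ratio scaling, TPM without mitochondrially encoded genes, pseudocounts of 0.1 and 1, no filter or a minimum mean of 5 TPM, only the groups compared, eBayes without trend, the replicate number as a block, and each library left out.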

Additional observations from a re-analysis of the deposited data

Results flagged for a closer look

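In groups of 4 mice, a library was singled out when its gap to the nearest other library was, as a share of the group's range, above Dixon's 95% critical value. This happened in 14 of 300 groups examined, where chance gives about 1 in 20, so the number as a whole is what chance would give. At 24 h, mouse 1 stood out for Xcl1 (15.0 TPM, the others 7.60 to 8.32), Egr1 (30.5 TPM, the others 11.1 to 13.3), Per2 (0.366 TPM, the others 0.815 to 0.903), Fdps (107 TPM, the others 149 to 156) and the summed monocyte markers (1303 TPM, the others 801 to 872). Mouse 2 at 24 h was low for Ms4a4c (65.4 TPM, the others 96.0 to 99.99) and mouse 3 was high for Slc28a2 (11.1 TPM, the others 9.34 to 9.55). At 12 h, mouse 3 was high for Ccr2 (10.4 TPM, the others 5.69 to 6.32), Tlr13 (7.95 TPM, the others 3.75 to 4.29), the summed chemokine receptors (86.7 TPM, the others 52.6 to 56.2) and the summed B cell markers (16.4 TPM, the others 15.5 to 15.6). Mouse 2 at 12 h was high for Ccl5 (218 TPM, the others 174 to 180) and for summed skeletal muscle markers (550 TPM, the others 10.3 to 42.0). Mouse 1 at 12 h had the lowest sum of monocyte markers (447 TPM, the others 624 to 636).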

How the results depend on the processing

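The number of higher genes, 218 as deposited, was 572 after median-ratio scaling, 415 in TPM without mitochondrially encoded genes and 112 to 321 with 1 library left out. The 46 lower genes became 304 and 187 under these scalings, 76 with only the 2 groups compared, and 15 to 51 with 1 library left out. The interaction with RM-9, at 0 genes, gave 33 and 27 under the scalings, 2 with a pseudocount of 1, 13 with no filter, 69 with the replicate number as a block and 0 to 6 with 1 library left out. Samples with the same number come from different mice, their deviations correlated at −0.102, −0.419, −0.0235 and 0.256, and with that block 186 genes were higher and 46 lower. The cause of these differences was not tested. Of the 108 named genes, 73 passed and 34 of these passed in all 8 fits without 1 library. Median-ratio scaling lost 1 named call (Hspa8) and added 10, and the fit of only the 2 groups lost 23. The sign turned for Mb21d1 (0.017 after median-ratio scaling) and F13a1 (−0.12 to 0.76 with 1 library left out, negative without RT 24 h mouse 1). Values near 0 TPM rest on few reads. The limma p-values of the main fit use a spread between tumors pooled over all MC-38 groups, not only the 2 compared. Each of these groups holds 4 tumors.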

Other observations

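Some members of the Toll-like receptor, Schlafen and MS4A families were also higher at 24 h. These lists were chosen after the values had been seen and are descriptions. Of 11 Toll-like receptor genes tested, 3 were higher as deposited, 6 after median-ratio scaling and none was lower. Without RT 12 h mouse 3, 4 were called, and 1 without RT 12 h mouse 1, 2 or 4 or RT 24 h mouse 1 or 4. The 3 were the endosomal sensors of nucleic acids Tlr9 (3.36, 2.75, 4.65 and 2.55 TPM at 12 h, 14.2, 8.15, 6.63 and 9.54 TPM at 24 h, limma adjusted p = 0.00332), Tlr7 (2.92 TPM ± 1.05 and 6.65 TPM ± 1.54, limma adjusted p = 0.0278) and Tlr13 (5.06 TPM ± 1.95 and 9.48 TPM ± 1.74, with overlap between the times, limma adjusted p = 0.0408). Of 7 Schlafen genes tested, 3 were higher, with Slfn1 rising from 11.5 TPM ± 3.02 to 32.3 TPM ± 5.81 (log2 fold change 1.47 ± 0.16, limma adjusted p = 0.000496) and Slfn2 from 58.8 TPM ± 6.13 to 104 TPM ± 11.4 (limma adjusted p = 0.0036). Of 10 MS4A genes tested, 4 were higher, Ms4a4c, Ms4a6b, Ms4a6c and Ms4a6d, all 10 had positive log2 fold changes, and 8 were higher without RT 12 h mouse 3. Close copies within both families may share reads.

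Cd40 and Cd86, which encode costimulatory surface proteins of antigen-presenting cells, rose from 15.0 TPM ± 3.70 to 32.1 TPM ± 2.62 and from 2.83 TPM ± 1.03 to 7.36 TPM ± 0.878 (limma adjusted p = 0.00321 and 0.00177). Spi1, which encodes the myeloid factor PU.1, rose from 13.4 TPM ± 4.94 to 27.2 TPM ± 1.87 (limma adjusted p = 0.0263), near its control mean of 29.4 TPM. Fcer1g, a signalling chain of Fc receptors, went from 139 TPM ± 46.4 to 253 TPM ± 24.9 (limma adjusted p = 0.0373), under its control mean of 322 TPM. Among the falling genes, the transcription factor gene Sp1 went from 25.6, 33.7, 44.6 and 31.3 TPM to 18.2, 20.8, 12.9 and 20.6 TPM (log2 fold change −0.88 ± 0.17, limma adjusted p = 0.0118). The linker histone gene H1f0 went from 152 TPM ± 22.8 to 82.0 TPM ± 8.04 (limma adjusted p = 0.0194). These genes were chosen after their values had been seen.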
